A study of Mus musculus with 6 samples.

Results

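The comparison described here set the 2 Erg KO libraries against the 2 CreT control libraries, 4 of the 6 in situ Hi-C libraries of the series. The libraries were chosen by genotype, with earlier results of these data known, because both groups carry the Rag1Cre transgene and differ in Erg. The Erg KO cells were Rag1CreT/+;Erg fl/fl and the CreT control cells were Rag1CreT/+ with Erg intact, both from mice labelled C56BL/6. All were B-cell progenitors grown from lineage-depleted bone marrow for 8 days on OP9 stromal cells and selected for B220. Erg KO replicate 2 came from a male mouse and the other 3 libraries came from females. Rag1Cre deletes floxed alleles from the common lymphoid progenitor onwards. The Erg KO cells were arrested at an earlier stage of B-cell development than control cultures, so that loss of Erg and developmental stage cannot be told apart here. The deleted part of Erg is far smaller than a bin, and the counts therefore did not check the genotype.

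Erg is an ETS family transcription factor of blood stem cells and early lymphoid cells. In the nucleus, active gene-rich chromatin (compartment A) and inactive gene-poor chromatin (compartment B) each prefer their own kind, and contacts within a chromosome fall off with distance. Domains separated by boundaries restrict contacts over shorter distances, and the antigen receptor loci fold so that distant V genes can reach their joining segments.

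In situ Hi-C joins DNA ends that lie close together, and each count is the number of read pairs that link 2 bins of the genome. The bins were about 100 kb wide and each began at a restriction site. The sequence at the start of 4 bins named below shows this, with the GATC site in capitals (GRCm38, plus strand).
Gata3 bin, chr2:9800337-9800366: ggaccatgggtttGATCcccaacactgaaa
Hoxa9 bin, chr6:52199606-52199635: gtaaatttcctggGATCaaacagaaagaac
Cd3d and Cd3g bin, chr9:44899787-44899816: ctgcagttcagttGATCtaattcagaacaa
Atm bin, chr9:53499825-53499854: actggttcatttgGATCaacaattcagttg
All 24048 junctions between neighbouring autosomal bins lay at this site. The 4 bins held between 219 and 290 such sites each, against a median of 247 over the 23654 bins analysed.

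The libraries held between 57259415 and 68085468 read pairs. Erg KO replicate 1 stood apart. In local contacts (defined below) Erg KO replicate 2 correlated more closely with CreT control replicate 2 (r = 0.982 across 23654 bins) than with Erg KO replicate 1 (r = 0.975), and the CreT control replicates correlated at 0.988. Compartment scores gave the same order, at 0.997, 0.990 and 0.998. These correlations are across bins of the same libraries and are given as a description. Calls lost without Erg KO replicate 1 are therefore named beside the results. A sex term would take up Erg KO replicate 2 alone and was not fitted to the 4 libraries.

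Erg KO libraries held more contacts between chromosomes and over long distances, and fewer over intermediate distances, than CreT control libraries. Contacts between chromosomes accounted for 32.1% and 34.4% of the read pairs on autosomes in Erg KO, against 24.6% and 26.7% in CreT control. Both Erg KO values lay above both CreT control values, and the means were 33.3% ± 1.63 (SD, n = 2) and 25.7% ± 1.47 (SD, n = 2). With 2 libraries against 2, an exact two-sided permutation test cannot give a p below 0.333, which was its value here and for every share below in which the groups did not overlap.

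Among contacts within chromosomes, the share between 0.5 and 5 Mb was 20.7% and 20.4% in Erg KO and 23.5% and 21.8% in CreT control. The share over 50 Mb was 10.7% in both Erg KO libraries and 8.52% and 8.98% in CreT control. The shares from 10 to 20 Mb overlapped, at 9.43% and 9.60% in Erg KO against 9.43% and 9.55% in CreT control. The groups thus crossed near 10 to 20 Mb.

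**Figure D1:**
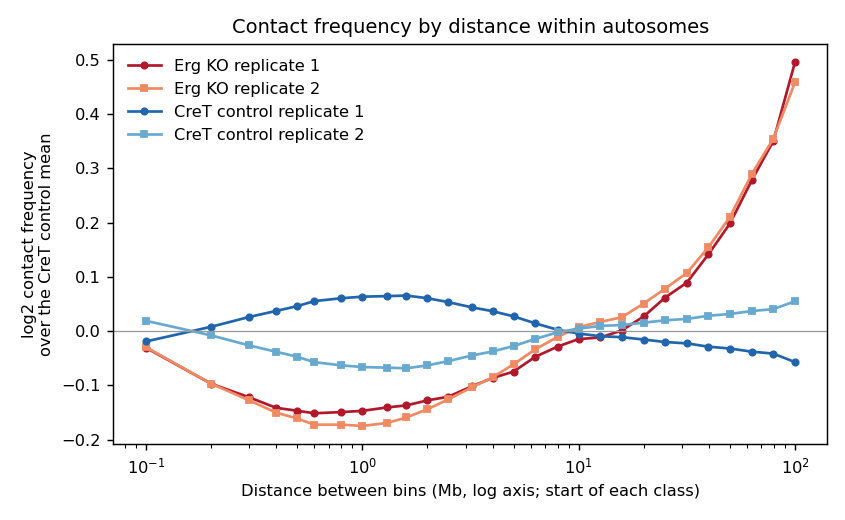
Contact frequency by distance in the 4 libraries, as log2 over the CreT control mean (y axis) against the distance between bins in Mb (log x axis), 1 line per library. Both Erg KO lines lie below both control lines from 0.1 to 8 Mb and above them from 20 Mb, reaching 0.50 and 0.46 at 100 Mb and over.

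At 1 Mb the contact frequency was lower than the CreT control mean by a log2 value of -0.15 in Erg KO replicate 1 and -0.17 in replicate 2, while the CreT control libraries themselves lay at 0.06 and -0.07. The gap between the control replicates was thus close to the difference between groups. In the class that starts at 79.4 Mb the values were 0.35 and 0.35 in Erg KO and -0.04 and 0.04 in CreT control, a difference well outside the gap between replicates. The slope of log10 contact frequency on log10 distance from 5 to 50 Mb was -0.386 and -0.385 in Erg KO and -0.466 and -0.433 in CreT control, a shallower fall in Erg KO.

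The direction was shared by the autosomes. In the share of a chromosome's contacts, all 19 autosomes had lower values in Erg KO at 0.5 to 1 Mb (log2 differences from -0.20 to -0.10) and all 19 had higher values over 50 Mb (from 0.12 on chromosome 16 to 0.36 on chromosome 11). In limma over 19 autosomes by 9 distance classes, 100 of 171 shares (58.5%) passed an adjusted p of 0.05, 39 higher and 61 lower in Erg KO. Of the 19 shares over 50 Mb, 18 were higher, and of those at 1 to 2 Mb, 18 were lower. Shares of 1 library move together, so these p-values are too small. With all 6 libraries and sex in the model 14 passed, of which 11 were higher over 50 Mb.

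With the compartments taken apart, the change over 50 Mb was seen in each pairing and the change at shorter distances was not. Over 50 Mb, contact frequency in Erg KO exceeded CreT control by a log2 difference of 0.13 for A with A, 0.40 for B with B and 0.36 for A with B, and the groups did not overlap in any of them. At 0.5 to 1 Mb the differences were -0.35 for A with A, 0.13 for B with B and -0.13 for A with B. These values are from counts not corrected for bin coverage.

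Contacts among compartment A were lower and contacts among compartment B were higher in Erg KO in the counts as deposited, and most of this went with bin coverage. Bins were ordered by the compartment score of the Erg fl/fl control libraries, which belong to neither group, and the outer quintiles were compared over distances of 2 Mb or more. Observed over expected contacts of A with A were 1.64 and 1.77 in Erg KO and 1.91 and 1.95 in CreT control. Those of B with B were 1.55 and 1.46 in Erg KO and 1.199 and 1.26 in CreT control. Neither measure overlapped between groups.

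After counts were balanced for bin coverage, A with A was 1.34 in both Erg KO libraries and 1.31 and 1.35 in CreT control, and the groups overlapped. B with B was 1.91 and 1.95 in Erg KO against 1.85 and 1.90, a difference of 0.05 in place of 0.27. Compartment strength, the mean of A with A and B with B over A with B, was then 5.68 and 6.25 in Erg KO and 5.86 and 6.51 in CreT control and overlapped between groups (exact permutation p = 0.667).

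In the counts as deposited, compartment strength was 5.60 and 6.20 in Erg KO and 5.95 and 6.61 in CreT control, with the same p. It depended on distance. From 2 to 10 Mb it was 4.97 and 5.42 in Erg KO and 4.67 and 5.31 in CreT control, and the groups overlapped. Over 10 Mb it was 5.95 and 6.62 against 6.69 and 7.30, lower in Erg KO with no overlap (exact permutation p = 0.333, the smallest possible). After balancing, the difference over 10 Mb was -0.49 in place of -0.71 and the groups overlapped.

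**Figure D2:**
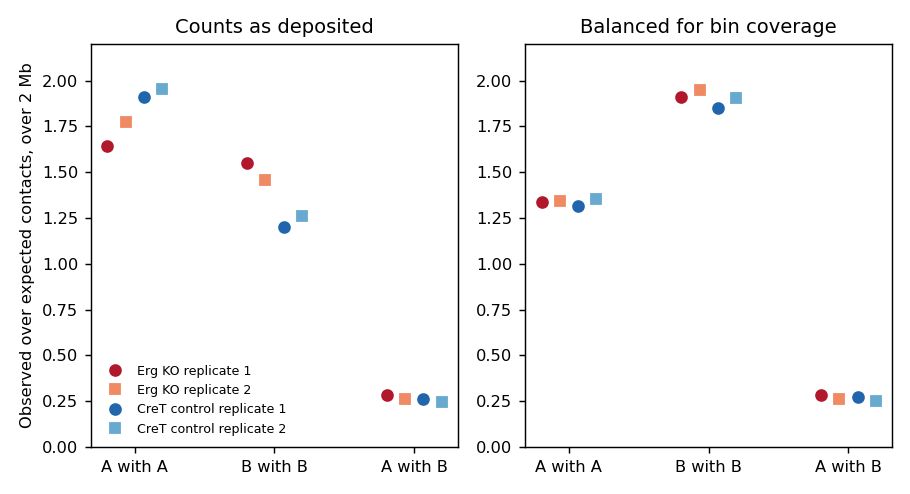
Observed over expected contacts (y axis) within and between the outer quintiles of bins by compartment score, 1 point per library, from counts as deposited (left) and balanced for bin coverage (right). All distances of 2 Mb or more are pooled. The gap of the groups in A with A on the left, 1.64 and 1.77 against 1.91 and 1.95, is absent on the right.

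No bin changed its compartment score past the threshold. In limma on scores corrected for GC content, 0 of 23654 bins (0.0%) passed an adjusted p of 0.05, and 2775 had an unadjusted p under 0.05. When Erg KO replicate 2 was left out 4692 bins passed, and when replicate 1 was left out none did. A group of 1 library in such fits is assumed to vary like the other group. The replicate difference had an SD of 0.14 in Erg KO and 0.06 in CreT control. The smallest p among higher scores fell in Slc8a1, a sodium-calcium exchanger gene on chromosome 17. The score of that bin (chr17:81600030-81700395) was 0.35 and 0.29 in Erg KO and -0.16 and -0.18 in CreT control, a difference of 0.49 (SE 0.03, limma adjusted p = 0.42). Among lower scores it fell in the bin of Fbxw15 on chromosome 9, at -0.55 and -0.54 in Erg KO and -0.25 and -0.22 in CreT control (limma adjusted p = 0.42).

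Domain boundaries had lower insulation scores in Erg KO, that is, fewer contacts across them relative to their flanks. The score is the log2 of contacts across a bin over those within its flanks of 5 bins, and means are given before GC correction. Over 1799 boundaries placed in the Erg fl/fl control libraries, the mean score was -0.76 and -0.77 in Erg KO and -0.68 and -0.72 in CreT control. The groups did not overlap and differed by -0.07 (exact permutation p = 0.333, the smallest possible). Over the other 21410 bins the difference was -0.01, and the groups did not overlap there either. With flanks of 10 bins the difference in other bins was -0.03 without overlap, and with 3 bins -0.003 with overlap. Of the boundaries, 1094 had lower and 705 higher scores after GC correction, with a median difference of -0.03 against 0.00 over all bins.

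Of 23209 bins tested singly, 0 (0.0%) passed in limma and 3738 had an unadjusted p under 0.05. The smallest adjusted p was 0.074. On simulated scores a shift of 0.5 was recovered in 0.0% of cases, so the test could miss changes of that size. The strongest lower score was at the bin of Rpl38, a ribosomal protein gene, and Ttyh2 on chromosome 11, at -2.44 and -2.50 in Erg KO and -1.74 and -1.98 in CreT control. This count changed with the library left out. Leaving out Erg KO replicate 1 gave 428 bins and leaving out replicate 2 of that group gave 3174, whereas leaving out CreT control replicate 1 gave 0 and leaving out CreT control replicate 2 gave 2. With 1 Erg KO library the variance was that of the controls, and limma gave all bins the same one, so these counts rest on another spread than the count of 0.

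Local contacts, the read pairs that link a bin to bins 200 kb to 2 Mb away, were lower mostly in compartment A and higher mostly in compartment B. In edgeR's quasi-likelihood test with a GC offset, 2152 of 23654 bins (9.1%) passed an adjusted p of 0.05, with 1021 higher (4.32%) and 1131 lower (4.78%) in Erg KO. Of the lower bins, 84.2% lay in compartment A of the Erg fl/fl control, against 24.3% of the higher bins and 48.8% of all bins. The lower bins held 1.30 protein-coding gene starts each, the higher bins 0.412 and all bins 0.859. Neighbouring bins share read pairs and are not independent.

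**Figure D3:**
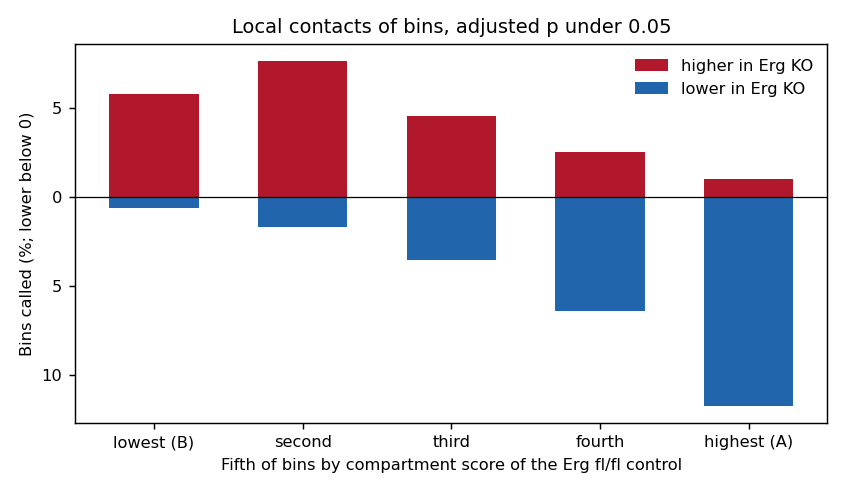
Share of bins (y axis, %) whose local contacts were higher (above 0) or lower (below 0) in Erg KO at an adjusted p under 0.05, by quintile of the compartment score of the Erg fl/fl control (x axis). Lower bins rise from 0.634% in the lowest quintile to 11.7% in the highest, and higher bins go from 5.81% in the lowest and 7.63% in the second to 1.01% in the highest.

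The number of calls depended on the libraries and the correction. With CreT control replicate 1 left out 87 bins passed, and with CreT control replicate 2 left out 1124 did. With Erg KO replicate 1 left out 849 passed, and with replicate 2 of that group left out 5853 did. Erg KO replicate 1 was farther from the controls than replicate 2 in 1875 of the 2152 bins. DESeq2 called 63 higher and 131 lower. Without the GC offset 12446 bins passed, and the median log2 difference then ran from 0.38 in the tenth of bins poorest in GC to -0.37 in the richest. Median differences were small after the offset: 0.05 in the lowest quintile by compartment score and -0.06 in the highest. Chromosome 9 had 147 lower and 3 higher bins, with a median of -0.07 over its 1215 bins.

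Most genes of the B lineage lay in bins that did not pass, as did most bins of the genome. Each gene is given by the bin in which it starts, which can hold other genes and leave out part of the gene. The genes came from 8 lists that held 138 genes in all, of which 13 passed. Of all bins 9.1% passed (4.32% higher and 4.78% lower), but these shares, also used below, are not matched for compartment. Every list averaged a positive compartment score, on the side of compartment A, in each library. In the highest quintile of bins by compartment score, 11.7% were lower and 1.01% higher, with a median of -0.06. Of 20 B-lineage transcription factors none passed, and their median log2 difference was -0.01, against 0.00 over all bins. Erg itself had 1184 and 1303 normalised local contacts in Erg KO and 1329 and 1308 in CreT control, and the difference of -0.09 (SE 0.06, edgeR adjusted p = 0.37) did not pass. It was -0.33 (adjusted p = 0.00091) without the GC offset and -0.24 (adjusted p = 0.012) with a coverage offset. Ebf1, a B-lineage specification factor, had 1318 and 1213 against 1207 and 1174, a difference of 0.09 that was -0.0012 without the GC offset.

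Pax5, which commits cells to the B lineage, starts in the bin chr4:44699832-44800341, as does Zcchc7, and most of Pax5 lies outside it. That bin had 924 and 999 against 1086 and 1074 normalised local contacts, a difference of -0.17 (edgeR adjusted p = 0.10). It was -0.04 with a coverage offset, and it passed at -0.21 over 100 kb to 1 Mb, at -0.27 with all 6 libraries and sex and at -0.23 without Erg KO replicate 2 (edgeR adjusted p = 0.039, 0.0071 and 0.010). The insulation score of that bin was 0.01 and 0.13 in Erg KO and 0.50 and 0.34 in CreT control (limma adjusted p = 0.085).

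Among 19 pre-BCR and B-cell surface genes tested, 2 were lower and none was higher, against 4.78% and 4.32% of all bins, with a median of -0.07. Il7r, the interleukin-7 receptor alpha chain, had 893 and 999 normalised local contacts in Erg KO and 1125 and 1084 in CreT control, a difference of -0.22 (SE 0.07, edgeR adjusted p = 0.039). Ms4a1, which encodes CD20, differed by -0.24 (SE 0.07, edgeR adjusted p = 0.026). Neither passed without Erg KO replicate 1, where the differences were -0.15 and -0.16, and Il7r differed by -0.11 without the GC offset.

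Of 15 V(D)J recombination and repair genes, 2 were lower, against 4.78% of all bins, and none was higher, with a median of -0.03. Atm, a kinase of the DNA break response, had 609 and 653 normalised local contacts in Erg KO and 809 and 771 in CreT control, a difference of -0.33 (SE 0.08, edgeR adjusted p = 0.012) that was -0.06 with a coverage offset and -0.17 without the GC offset and passed with neither. Dclre1c, which encodes the hairpin-opening nuclease Artemis, differed by -0.22 (SE 0.06, edgeR adjusted p = 0.033). It did not pass without Erg KO replicate 1 (adjusted p = 0.084) and was -0.08 with a coverage offset (adjusted p = 0.37). Rag1, whose protein cuts at V(D)J joints, had 934 and 1061 against 1104 and 1069. The difference of -0.12 (edgeR adjusted p = 0.25) did not pass and was 0.0071 with a coverage offset.

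T-lineage genes moved in both directions. Of 18 tested, 1 was higher and 4 were lower, against 4.32% and 4.78% of all bins, with a median of -0.03. The 4 lower genes lie in 3 bins. Gata3, a T-lineage transcription factor, had 1396 and 1369 normalised local contacts in Erg KO and 1013 and 1085 in CreT control. The difference of 0.40 (SE 0.06, edgeR adjusted p = 0.0014) was 0.35 to 0.45 with any single library left out. It was 0.16 (edgeR adjusted p = 0.064) without the GC offset.

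The genes of the CD3 complex, the signalling part of the T-cell receptor, lie side by side on chromosome 9. Cd3d and Cd3g share a bin, with 1129 and 1358 normalised local contacts in Erg KO and 1528 and 1571 in CreT control, a difference of -0.32 (SE 0.06) that was -0.19 without Erg KO replicate 1 and still passed. Cd3e in the next bin had 1109 and 1073 against 1336 and 1324, a difference of -0.29 (SE 0.06). Lat, an adaptor of T-cell receptor signalling, was lower by -0.21 (SE 0.06) and did not pass without Erg KO replicate 1.

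The 13 listed genes that passed lie in 12 bins. With CreT control replicate 1 left out, 3 of these bins passed, those of Gata3, Hoxa9 and of Cd3d with Cd3g. In DESeq2 2 passed, those of Gata3 and Hoxa9. The Cd3d and Cd3g bin differed by -0.08 with a coverage offset and did not pass. Atm and the CD3 genes lie on chromosome 9, where the median difference of all bins was -0.07.

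**Figure D4:**
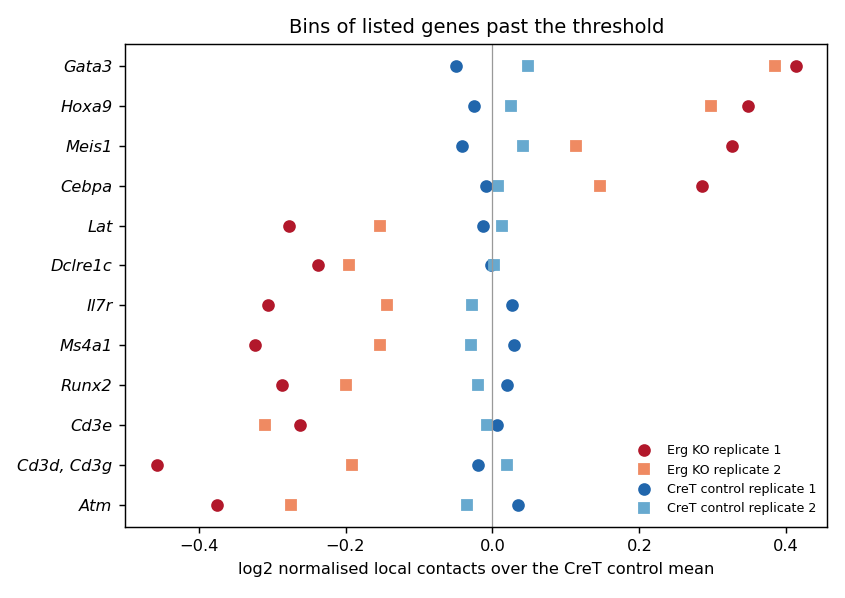
Normalised local contacts of the 12 bins of listed genes that passed an adjusted p of 0.05, as log2 over the CreT control mean (x axis), 1 point per library. The bins were chosen by that test, and in all 2152 bins that passed both Erg KO values lay on 1 side of both control values. In Meis1 and Cebpa, Erg KO replicate 2 lies much nearer to the controls than replicate 1.

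Of 14 stem and progenitor genes, 2 were higher, against 4.32% of all bins, and none was lower. The bin of Hoxa9, a homeobox factor of blood progenitors, also holds other Hoxa genes. It had 2429 and 2346 normalised local contacts in Erg KO and 1875 and 1943 in CreT control. The difference of 0.32 (SE 0.05, edgeR adjusted p = 0.0014) passed without any single library, but was -0.02 without the GC offset. Meis1, a partner of Hoxa9, differed by 0.22 (SE 0.06) and by 0.11 without Erg KO replicate 1, where it did not pass.

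Genes of other cells the culture could hold gave few calls, with list medians of -0.01 for myeloid and NK genes and 0.07 for stromal genes. Of 18 myeloid and NK genes, Cebpa, a myeloid transcription factor, was higher by 0.22 (SE 0.06), but its difference was -0.20 without the GC offset, and 0.15 without Erg KO replicate 1, where it did not pass. Over all bins 4.32% were higher and 4.78% lower. Of 18 stromal genes, Runx2, a bone factor, had a difference of -0.24 (SE 0.06), but one of 0.04 with a coverage offset and of -0.03 without the GC offset. None of 15 housekeeping genes passed, and their median was -0.05. As compartment scores, stromal genes averaged 0.28 to 0.46 in Erg KO and 0.22 to 0.23 in CreT control. Stem and progenitor genes averaged 0.67 to 0.69 and 0.68. Housekeeping genes were also higher in Erg KO without overlap, at 1.236 to 1.258 against 1.219. B-lineage transcription factors were lower without overlap, at 0.769 to 0.819 against 0.829 to 0.868. So were pre-BCR and B-cell surface genes, at 0.982 to 1.136 against 1.145 to 1.154. The groups overlapped in the remaining lists, and these list means were not tested. A part of other cell types in these results was not tested.

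Listed genes with the next smallest p did not pass. Their differences were -0.15 for Myb and -0.15 for Ikzf3, both B-lineage regulators, -0.22 for Cr2, a complement receptor gene, -0.15 for Csf3r and -0.14 for Itgam of the myeloid list, -0.21 for Ly6a of the stem and progenitor list, 0.21 for Prrx1 and 0.16 for Cxcl12 of the stromal list, and -0.21 for Ppia, 0.15 for Tbp and -0.11 for Polr2a of the housekeeping list.

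Most bins of Igh, Igk and Igl and some of Tra and Trd had lower local contacts in Erg KO, where 4.78% of all bins did. Of 33 Igk bins (light chain kappa, chromosome 6) 20 were lower, with a median difference of -0.29. All 3 Igl bins were lower, with a median of -0.40. Of 14 bins of Tra and Trd tested, 7 were lower, with a median of -0.32, whereas none of 8 Trb bins and none of 2 Trg bins passed. At Igh 24 of 29 bins were lower, with a median of -0.41. The median normalised count per Igk bin was 483 and 476 in Erg KO and 630 and 555 in CreT control. Without the GC offset 3 Igk bins were lower, with a median of -0.09, and 22 Igh bins, with a median of -0.26. DESeq2 called 12 Igh, 3 Igk and 1 Igl bins and none of Tra and Trd. Without CreT control replicate 1, 5 Igh bins and no Igk, Igl or Tra and Trd bin passed.

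**Figure D5:**
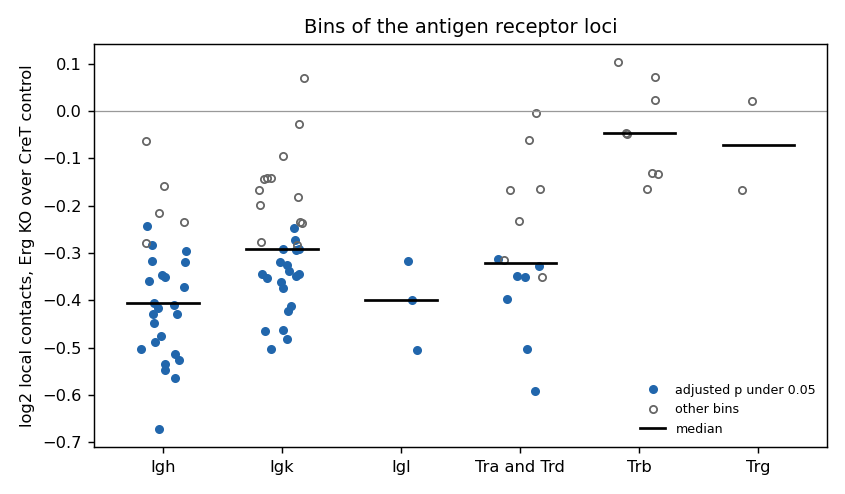
Log2 difference in local contacts between Erg KO and CreT control (y axis) for each bin of 6 antigen receptor loci (x axis), with filled points for bins at an adjusted p under 0.05 and a line at the median. The medians lie at -0.41 for Igh, -0.29 for Igk, -0.40 for Igl and -0.32 for Tra and Trd, and near 0 for Trb and Trg, at -0.05 and -0.07.

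The largest single changes were partly in repeated gene families, where 80 bp reads may not be placed uniquely. Bins of Vmn2r-ps159 and Vmn2r82 (vomeronasal receptor family) were lower by -0.71 and -0.61, a bin of Ighv genes by -0.67, a bin inside Ralgapa1 by -0.61 and the bin of the olfactory receptors Olfr165 and Olfr166 by -0.59. The Vmn2r-ps159 bin differed by -0.46 (adjusted p = 0.059) without Erg KO replicate 1, and the Ralgapa1 bin by -0.24 with a coverage offset. The largest increase, 1.201 (SE 0.15), was at a bin on chromosome 13 that holds part of Tmem267, with 201 and 178 normalised local contacts in Erg KO and 83.9 and 81.1 in CreT control, and was 0.62 with a coverage offset. Fat1, an atypical cadherin gene, was higher by 0.56, with 1019 and 705 against 575 and 593. Its adjusted p was 0.052 without Erg KO replicate 1. The other 3 bins lay in the Speer4e region of chromosome 5, and 1 of them, that of Gm21083 and Gm21190, did not pass without that library (adjusted p = 0.12).

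Few single bin pairs passed. Of 3027105 bin pairs tested by edgeR, 53 (0.00175%) passed an adjusted p of 0.05, with 31 higher and 22 lower in Erg KO. Of these, 51 lay within a chromosome. Of the 22 lower pairs, 21 joined 2 compartment A bins, as 39.3% of all pairs tested did. Of the 29 higher pairs within a chromosome, 18 joined 2 compartment B bins, as 37.2% of all pairs did. These shares of all pairs are not matched for distance. Of the lower pairs, 13 were 0.2 to 0.5 Mb and 8 were 0.5 to 1 Mb apart, whereas 1542800 of the pairs tested were over 10 Mb apart. Without CreT control replicate 1 or without CreT control replicate 2 none passed (76370 and 92031 pairs at an unadjusted p under 0.05), leaving out Erg KO replicate 1 gave 3, and leaving out replicate 2 of that group gave 356. DESeq2 called 2. None of the pairs named below passed without Erg KO replicate 1.

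The strongest loss joined the bin of Cd44, an adhesion receptor gene, to a bin inside Ldlrad3 0.9 Mb away on chromosome 2. It had 8.22 and 18.2 normalised read pairs in Erg KO and 46.2 and 36.5 in CreT control. A pair 0.6 Mb apart on chromosome 9, from the Phldb1 bin to the Fxyd2 bin, spans the CD3 genes. It had 12.4 and 33.7 read pairs in Erg KO and 72.3 and 63.1 in CreT control, a log2 difference of -1.57 (SE 0.26). The other named losses joined the P4ha2 bin to the bin of Gpx3 and Tnip1 on chromosome 11 (-1.38) and the bin of Chdh and Il17rb to that of Itih4 on chromosome 14 (-1.26).

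Gains were larger in Erg KO replicate 1 than in replicate 2. The bin of Sdc2, a syndecan gene, and that of Mtdh, 1.1 Mb apart on chromosome 15, had 55.2 and 31.1 read pairs in Erg KO and 13.9 and 15.1 in CreT control. The Fat1 bin and a bin 0.9 Mb away had 65.8 and 25.02 against 10.3 and 21.5, and their log2 difference of 1.55 was 0.69 without Erg KO replicate 1. The other named gains were 2 pairs from a bin inside Actr3b on chromosome 5 (1.76 and 1.53), of which the first ends in the bin of Gm10220, and a pair on chromosome 18 that ends at Fzd8, a Wnt receptor gene (1.43). Named for the gene and not for the size of change, 2 bins in the body of Pax5 had fewer contacts with the bin of Zbtb5, Polr1e and Fbxo10. Their log2 values were -1.23 and -1.04. With the offset on bin coverage they were -0.97 and -0.81, and neither passed (edgeR adjusted p = 0.97 for each). With all 6 libraries and sex the first did not pass (-1.13, edgeR adjusted p = 0.080) and the second did (-1.30, edgeR adjusted p = 0.0006). No pair within an antigen receptor locus passed. The 435 pairs within Igh had a median of -0.40, with 142 lower and 1 higher at an unadjusted p under 0.05. Of all pairs tested, 5.39% had such a p in either direction, with a median difference of -0.03. By distance the share was 12.3% at 0.2 to 0.5 Mb, 10.2% at 0.5 to 1 Mb and 7.08% at 1 to 2 Mb. The medians there were -0.02, -0.06 and -0.08. The Igh median was -0.16 with the offset on bin coverage, -0.26 without Erg KO replicate 1 and -0.27 without CreT control replicate 1.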

How the data were processed

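In situ Hi-C read pairs of 80 bp were aligned by the authors to mm10 with diffHic, and duplicates, dangling ends and long fragments were removed. The deposited values are raw counts of read pairs per bin pair, with no normalisation. Bins and libraries were matched by the labels and the counts used as deposited. The build was checked against GRCm38: all 19 autosome ends matched. The libraries of the comparison held 57259415 to 68085468 read pairs, and counting error is small for shares of a library but not for single bin pairs, whose median over 10 Mb was 3.47 normalised read pairs per library. The labels call the libraries replicates and the methods call them biological duplicates.

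Autosomal bins with 0.3 to 3 times the median coverage were kept, 23654 of 24067. Regions blacklisted in the study's methods were not masked here. Compartment scores were the component, of the first 3, most correlated with gene density, after smoothing over 5 bins, and it was the first in every case. Boundaries were minima over 5 bins either side with a depth of 0.2, settings chosen after the data were seen. limma 3.58.1 was used for scores and edgeR 4.0.16 (TMM, loess span 0.3 on GC content, for bin pairs also on abundance) for counts, with DESeq2 1.42.0 as an alternative, in R 4.3.3. GC trends of scores were removed by splines with 5 degrees of freedom. Standard errors of edgeR log2 differences were derived from the F statistic. Bin pairs needed 10 read pairs over the 4 libraries and 5 times the frequency between chromosomes. That second limit, scaled to the area of a bin pair, removed no pair beyond the first. On simulated counts, 1.2-fold changes in local contacts were recovered in 49% of cases over 23654 bins, and 4-fold changes of bin pairs in 29% over 60000 pairs. On simulated scores, a shift of 0.5 was recovered in 47.5% of cases for compartment scores and 0.0% for insulation scores. A shift of 1 was recovered in 86% and 78%.

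The comparison and the gene lists were chosen with earlier results of these data known. Named genes were Erg, Ebf1, Pax5, listed genes whose bin passed and, because fewer than 20 passed, the 3 with the smallest p of each list. Named bins and pairs were the 5 with the largest change in each direction, for pairs at least 200 kb apart with a mean count of 20. The pairs of the Pax5 body were named besides. A result that this rule names is not reported here. Alternatives were other normalisations, filters, windows, all 6 libraries with sex, a replicate block and each library left out.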

Additional observations from a re-analysis of the deposited data

How the results depend on the processing

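With 2 libraries a group, each library weighed heavily. Leaving out 1 library gave 0 to 4692 compartment bins, 0 to 3174 insulation bins, 29 to 148 chromosome shares, 87 to 5853 local contact bins and 0 to 356 bin pairs. The differences in shares were 6.47 to 8.76 percentage points between chromosomes, -3.00 to -1.23 at 0.5 to 5 Mb, 0.801 to 1.29 at 20 to 50 Mb and 1.73 to 2.19 over 50 Mb, all in the main direction. With all 6 libraries and sex, 1336 insulation bins, 14 chromosome shares, 5076 local contact bins and 535 bin pairs (331 higher, 204 lower) passed. In that model the sex term comes from Erg KO and Erg fl/fl control, in each of which replicate 2 is the male, so sex and replicate number cannot be told apart.

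With the replicate block 830 insulation bins passed against 0 without it, and no other count of calls moved by over 1.5 times. The numbers did not pair the libraries: deviations of same-numbered libraries correlated at -0.10 in local contacts, -0.07 in compartment scores and 0.01 in insulation.

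Without a GC correction 219 insulation bins and 12446 local contact bins passed. A coverage offset gave 3592 local contact bins and 6 bin pairs, 1 higher and 5 lower. Of these 6 pairs, 1 was among the 53 of the main fit. DESeq2 gave 194 local contact bins and 2 bin pairs. Abundance loess alone gave 5210 bin pairs (2478 higher, 2732 lower), TMM with the GC offset 15 higher and 30 lower, a count minimum of 20 gave 171, and an abundance filter chosen after seeing the data gave 173. With all distances of 2 Mb or more pooled, balancing for coverage turned the difference of A with A from -0.22 to 0.0066 and cut that of B with B to 0.052. The cause of these shifts was not tested.

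Local contact differences that changed sign with TMM scaling alone were those of Ebf1 (-0.0012), Hoxa9 (-0.019), Cebpa (-0.20), Cr2 (0.12), Cxcl12 (-0.063) and Tbp (-0.018). With a coverage offset they were those of Runx2 (0.037), Cr2 (0.031) and Rag1 (0.0071). Thinning to equal depth, 10 score quantiles and boundary windows of 3 and 10 bins moved the group differences in shares, compartment contacts and boundary scores by less than the larger of the groups' SDs. The levels themselves moved: mean strength was 8.40 in Erg KO and 8.97 in CreT control with 10 quantiles, and mean boundary scores were -0.83 and -0.77 with 3 bins and -0.71 and -0.64 with 10.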

Other observations

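Bins whose local contacts differed often lay side by side. The 1021 higher bins formed 655 runs, of which 76 had 3 or more bins, and the 1131 lower bins formed 724 runs, of which 84 had 3 or more. Neighbouring bins share read pairs, so a run is not a set of separate results. The longest higher run had 13 bins (chr8:43800179-45100334) and held the starts of Fat1 and of Mtnr1a, a melatonin receptor gene, with a median log2 difference of 0.34. A run of 10 bins on chromosome 2 held Jag1, a Notch ligand gene, and Snap25, a synaptic fusion gene, with a median of 0.34. A run of 9 bins on chromosome 7 held the start of Nr2f2, a nuclear receptor gene, with a median of 0.36.

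Among lower runs outside the antigen receptor loci, 11 bins on chromosome 3 (chr3:106000254-107100126) held Cd53, a leukocyte tetraspanin gene, Chil3 and other chitinase-like genes and Kcna3, a potassium channel gene, with a median of -0.36. A run of 11 bins on chromosome 17 (chr17:3599828-4699851) held the start of Nox3, an NADPH oxidase gene, with a median of -0.36. Another run of 8 bins on chromosome 3 held S100a8 and S100a9, calcium-binding proteins of myeloid cells, with a median of -0.34. A further lower run, of 10 bins on chromosome 16, is not outside these loci and takes in the Igl bins already counted above. It held the olfactory receptor genes named above, Lamp3 and Klhl6, a gene of B-cell receptor signalling, with a median of -0.40.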
